A study of Homo sapiens with 36 samples.

Results

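The 10 genes FOS, FOSB, JUN, JUNB, EGR1, IER2, DUSP1, BTG2, NR4A1 and IER3 are immediate early genes, and they were taken by name from a table of 21950 genes. RNA was sequenced from K562, a line of human chronic myelogenous leukemia cells that carries the BCR-ABL1 fusion kinase and makes embryonic and fetal globins. The cells, in DMEM and passaged at 3 d, were held in incubators of 1%, 5% or 21% oxygen and harvested at 6 h, 24 h, 3 d and 6 d. There were 36 libraries, 3 for every combination of the 3 levels and 4 times. All groups come from 1 cell line, and nothing in the labels says whether the 3 libraries of a group came from separate cultures, so that p-values here rest on a spread between libraries that may be only technical. At harvest the cells of every group were pelleted, rinsed in PBS and frozen, and each oxygen level had its own incubator, so that oxygen and incubator cannot be told apart.

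Immediate early genes are switched on within minutes of a growth factor, cytokine or stress signal, with no need for new protein, and their mRNAs are short-lived. MAP kinases act on the ternary complex factors and serum response factor bound at CArG boxes, and on CREB and related factors bound at cyclic AMP response elements. Centrifugation, temperature shifts and rinsing can induce these genes too, which is why their spread between replicates is given beside their levels.

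Promoters of 9 of the 10 genes were found in a RefSeq table of the GRCh38.p14 build, and the 250 bases before the annotated start are printed here for 3 genes that rose at 3 d in both low oxygen levels and for 3 that rose at 24 h in 1% oxygen. Capitals mark matches, on either strand, to 7 motifs: the CArG box, the full cyclic AMP response element TGACGTCA, its core TGACG, the AP-1 motif TGANTCA, the EGR motif GCGNGGGCG, the core ACGTG of the hypoxia response element, and TATAAA. The core TGACG also lies within the full element, and ACGTG can overlap either.
FOS, chr14:75278578-75278827, plus strand: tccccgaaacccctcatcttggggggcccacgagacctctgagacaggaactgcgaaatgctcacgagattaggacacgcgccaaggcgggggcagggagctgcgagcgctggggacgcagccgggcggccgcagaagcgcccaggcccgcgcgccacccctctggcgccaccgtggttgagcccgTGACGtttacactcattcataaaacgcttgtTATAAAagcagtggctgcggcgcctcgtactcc
EGR1, chr5:138465229-138465478, plus strand: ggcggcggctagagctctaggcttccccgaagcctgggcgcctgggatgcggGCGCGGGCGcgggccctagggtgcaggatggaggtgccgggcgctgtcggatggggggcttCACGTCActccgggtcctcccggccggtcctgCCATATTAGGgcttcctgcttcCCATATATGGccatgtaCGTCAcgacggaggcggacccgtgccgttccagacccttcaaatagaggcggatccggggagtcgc
BTG2, chr1:203305269-203305518, plus strand: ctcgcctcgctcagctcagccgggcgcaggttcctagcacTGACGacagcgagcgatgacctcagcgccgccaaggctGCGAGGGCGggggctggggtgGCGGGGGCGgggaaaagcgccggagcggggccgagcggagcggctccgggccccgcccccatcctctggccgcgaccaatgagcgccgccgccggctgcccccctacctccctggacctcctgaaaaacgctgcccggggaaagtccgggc
JUNB, chr19:12791236-12791485, plus strand: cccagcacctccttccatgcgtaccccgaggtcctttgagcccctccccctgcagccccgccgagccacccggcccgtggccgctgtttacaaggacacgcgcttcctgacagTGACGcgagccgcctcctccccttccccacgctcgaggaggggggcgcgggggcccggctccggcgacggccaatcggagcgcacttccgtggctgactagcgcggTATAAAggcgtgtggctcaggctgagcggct
IER2, chr19:13150161-13150410, plus strand: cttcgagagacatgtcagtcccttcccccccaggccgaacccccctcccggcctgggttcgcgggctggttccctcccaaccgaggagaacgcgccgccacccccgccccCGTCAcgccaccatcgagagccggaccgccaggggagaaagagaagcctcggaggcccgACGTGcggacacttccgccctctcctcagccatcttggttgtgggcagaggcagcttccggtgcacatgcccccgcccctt
DUSP1, chr5:172771196-172771445, minus strand: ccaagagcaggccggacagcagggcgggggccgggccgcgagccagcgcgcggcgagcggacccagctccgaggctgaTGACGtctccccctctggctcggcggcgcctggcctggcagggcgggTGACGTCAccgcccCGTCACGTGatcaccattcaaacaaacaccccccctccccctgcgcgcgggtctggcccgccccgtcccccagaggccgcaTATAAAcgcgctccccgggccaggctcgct
Of the 35116 promoters in the table, 1.16% held a CArG box in this window, and EGR1 alone of the 9 genes held any, with 2 of them. A TGACG core was present in 21.2% of all promoters and in those of FOS, FOSB, JUN, JUNB, EGR1, IER2, DUSP1 and BTG2. The full element was found in DUSP1 and in 1.65% of all promoters. Of the listed genes EGR1 and BTG2 held the EGR motif, present in 8.41% of promoters, while EGR1, IER2 and DUSP1 held ACGTG, present in 18.5%. TATAAA, present in 10.7% of promoters, stood in FOS, FOSB, JUNB and DUSP1. TGANTCA, present in 6.57%, had no match in these windows, and neither of the NR4A1 entries held any of the 7 motifs. These are matches of letters and not tests of binding. Sequence outside the 250 bases was not searched, so a gene without a match here may hold the motif elsewhere.

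Levels were given as FPKM, fragments scaled for transcript length and library size, so that genes can be compared per length; the tables hold no counts, and the depth of the libraries is unknown. One library stood apart, replicate 3 of 1% oxygen at 3 d, which is called the shallow library here. It had 7220 genes above 0, where the other 35 had between 14512 and 19543, and it listed 0 for 429 of the 3695 genes whose median was over 20 FPKM, where the others listed 0 for at most 7. Groups also differed in the share of 394 olfactory receptor genes above 0. That share was 54.8 to 70.1% in 1% oxygen at 3 d, the shallow library aside. In 5% oxygen it was 48.0 to 56.3% at 3 d and 66.0 to 74.6% at 6 d. In 21% oxygen it was 33.8 to 38.8% and 39.6 to 48.2% at these times, and in 1% at 6 d 23.6 to 37.1%. Its part in the levels of the 10 genes was not tested. K562 markers were as the label says, with GATA1, an erythroid transcription factor, at 124 FPKM or more in every library. Of 10 genes known to be induced by hypoxia, 7 rose in 1% over 21% oxygen at 24 h, 10 at 3 d and 8 at 6 d. Of all genes tested 6.56%, 16.9% and 5.84% rose at these times. Rising and falling mean here an adjusted p under 0.05 in a limma fit of log2(FPKM + 1) across the 10625 genes with a mean of at least 1 FPKM, and differences are on that log2 scale, which understates the change of low genes. FOSB, at a mean of 0.204 FPKM, did not reach that level, so that 9 of the 10 genes were tested. In bulk RNA, fewer cells that express a gene and less of its RNA per cell cannot be told apart.

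IER2, whose product is a small nuclear protein, was the most abundant of the 10, with a median library of 45.3 FPKM. IER3, a stress-induced regulator of survival and ERK signalling, had a median of 9.94 FPKM. JUNB, a partner in AP-1, followed at 8.96 FPKM and DUSP1, the phosphatase that switches MAP kinases off, at 8.39 FPKM. Medians of EGR1 and BTG2 were 6.53 and 5.41 FPKM, those of FOS and JUN, the classical AP-1 pair, were 1.51 and 1.30 FPKM, and those of NR4A1, an orphan nuclear receptor, and FOSB were 0.180 and 0.0889 FPKM. The medians hide wide ranges. EGR1 ran from 2.52 to 111 FPKM, DUSP1 from 0.147 to 52.9, FOS from 0.338 to 32.7 and BTG2 from 3.03 to 78.4. The highest group was 1% oxygen at 3 d for FOS, JUN and EGR1, 5% oxygen at 3 d for NR4A1 and IER3, and 5% oxygen at 6 d for FOSB, JUNB, IER2, DUSP1 and BTG2. None had its highest group in 21% oxygen or before 3 d. Most neighbours in the order of the 12 group means overlapped in their libraries, 10 of 11 pairs for IER2 and DUSP1, 9 for JUNB, BTG2 and NR4A1, 8 for JUN and EGR1, and 7 for FOS and IER3.

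**Figure D1:**
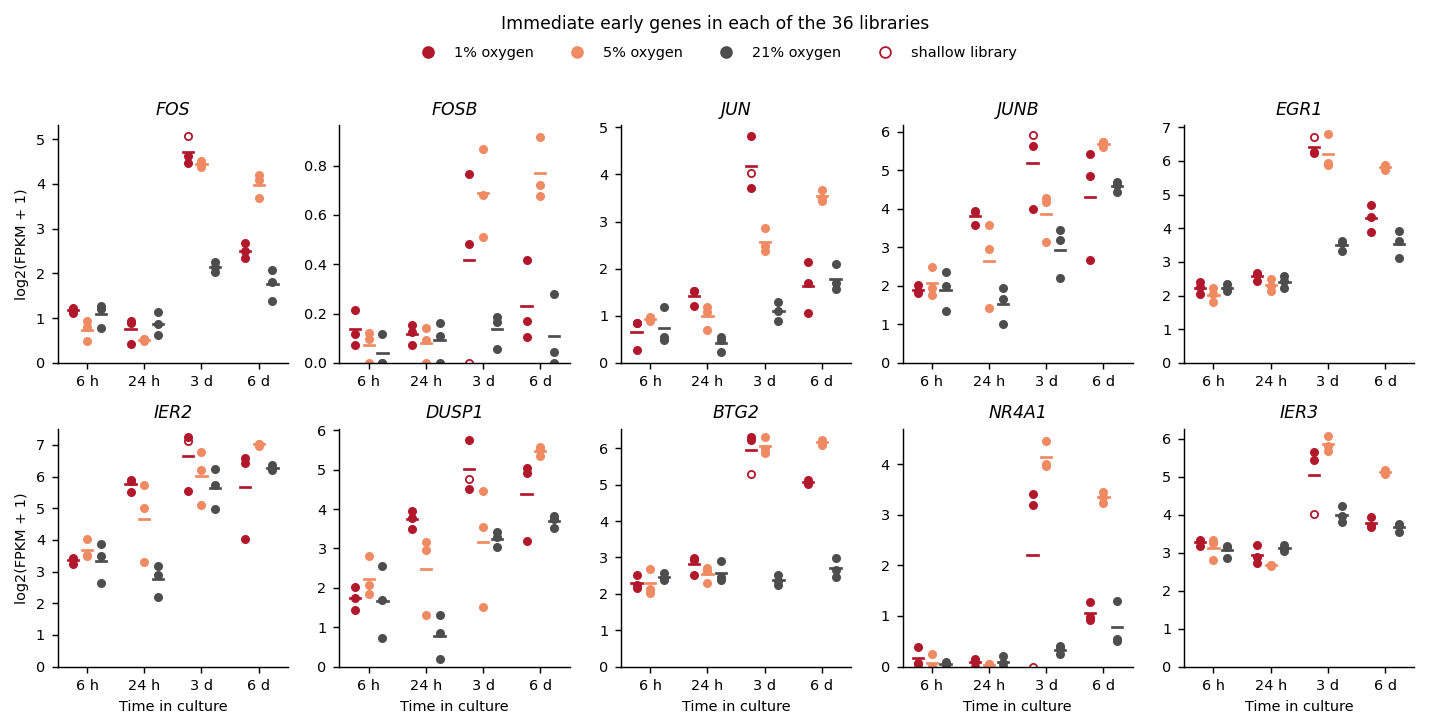
Level of each gene, as log2(FPKM + 1), in all 36 libraries, by time and oxygen level; points are libraries, short lines are group means, the open circle is the shallow library, and each panel has its own vertical scale from 0. The 1% and 5% libraries of FOS, EGR1 and BTG2 stand above those of 21% oxygen at 3 d, while the 1% libraries of IER2, JUNB and DUSP1 stand above those of 21% at 24 h, and replicates of these 3 genes scatter more.

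NR4A1 had a mean under 1 FPKM in 8 of the 12 groups and passed the filter only through its high groups, so its being tested already implied a difference. Its p-values and its place in the counts of genes passing carry this limit throughout. FOS and JUN were each under 1 FPKM in 4 groups, DUSP1 in 1, and JUNB, EGR1, IER2, BTG2 and IER3 in none.

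At 6 h the 10 genes were low at all oxygen levels. EGR1 had 4.24, 3.80 and 3.17 FPKM in 1% oxygen, 3.69, 3.11 and 2.52 in 5%, and 3.65, 3.38 and 4.07 in 21%. BTG2, an antiproliferative protein that binds the CCR4-NOT deadenylase, averaged 3.96 ± 0.642 FPKM in 1%, 3.97 ± 1.31 in 5% and 4.50 ± 0.413 in 21% (SD, n = 3 each). Of the 9 genes tested with limma, 0 passed in 1% or 5% against 21% oxygen, 0 had an unadjusted p under 0.05, and 0% of all genes passed. Between 1% and 5% oxygen 0 of the 9 passed and 1 had an unadjusted p under 0.05, while 0.0471% of all genes passed.

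At 24 h in 1% oxygen 4 of the 9 genes rose over 21%, IER2, DUSP1, JUNB and JUN, where 6.56% of all genes rose. IER2 had 58.1, 44.5 and 57.0 FPKM in 1% oxygen, against 7.95, 6.48 and 3.63 FPKM in 21%. Every 1% library was above every 21% library, and the log2 difference was 2.99 (SE 0.570, adjusted p 0.000851). DUSP1 had 14.4, 10.3 and 12.7 FPKM in 1% oxygen, against 1.48, 0.813 and 0.147 FPKM in 21%. Its groups did not overlap, and it rose by 2.95 (SE 0.572, adjusted p 0.000954). JUNB had 14.4, 10.9 and 14.0 FPKM in 1% oxygen, against 2.83, 2.17 and 1.00 FPKM in 21%, a difference of 2.27 (SE 0.550, adjusted p 0.00507). JUN was much lower, at 1.89, 1.32 and 1.88 FPKM in 1% oxygen, against 0.468, 0.401 and 0.168 FPKM in 21%, and it rose by 1.00 (SE 0.257, adjusted p 0.00765). Without replicate 3 of 21% oxygen, the lowest library for all 4 genes, JUNB (adjusted p 0.0519) and JUN (adjusted p 0.0634) no longer passed. That library had the highest FPKM total of all, 1.17e+06. The shallow library aside, it also had the fewest genes above 0, 14512, and the lowest share of olfactory receptor genes above 0, 13.2%. The part of these traits in the 4 rises was not tested.

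The other 5 genes tested did not pass at 24 h. FOS averaged 0.707 ± 0.321 FPKM in 1% oxygen and 0.847 ± 0.323 FPKM in 21% (SD, n = 3 each), with a log2 difference of -0.12 and a 95% interval of -0.51 to 0.27. EGR1 averaged 5.01 ± 0.538 FPKM in 1% oxygen and 4.35 ± 0.667 FPKM in 21%, a difference of 0.17 with an interval of -0.27 to 0.61.

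IER2, JUNB and JUN have 1 exon each in the GENCODE transcripts used for checks and DUSP1 has 4. Of 17 other tested genes without introns, 2 rose at 24 h, SDHAF1 by 2.70 (adjusted p 0.00124) and FEM1A by 1.01 (adjusted p 0.00632), where 6.56% of all genes rose. The median difference of the 17 was -0.04, beside 0.00 for all genes. IER3, whose GENCODE transcript used for checks also has 1 exon, though other transcripts of the gene may differ, had a difference of -0.19. A reading of GC-rich against GC-poor genes, the median log2 deviation of the 10% of genes richest in GC minus that of the 10% poorest in it, was 0.05 to 0.25 in the 1% libraries at 24 h and -0.21 to 0.13 in those of 21% oxygen, and JUNB and IER2 lie at the 97.1 and 91.2 percentiles of GC content. After each library was corrected for GC content and length, an alternative added after the data were seen, the difference of IER2 was 2.89 and the same 4 genes passed. The part of exon number in these rises was not tested, and that of GC content was not tested beyond this correction.

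In 5% oxygen at 24 h the libraries of IER2 were spread between those of the other levels. IER2 had 8.77, 31.2 and 52.0 FPKM in 5% oxygen, against 7.95, 6.48 and 3.63 FPKM in 21%. Replicate 1 lay close to the 21% libraries and replicate 3 close to the 1% ones. The share of olfactory receptor genes above 0 was 21.6%, 37.3% and 67.3% in replicates 1, 2 and 3 of 5% oxygen. Its part in this spread was not tested. IER2 was the 1 gene of 9 that rose (log2 difference 1.92, SE 0.570, adjusted p 0.0319), where 2.39% of all genes rose. Without replicate 3 of 5% oxygen its adjusted p was 0.255, without replicate 2 it was 0.130, and without replicates 2 or 3 of 21% it was 0.0560 and 0.280, and it was 0.175 in a fit of these 6 libraries alone. DUSP1, at 1.49, 7.92 and 6.77 FPKM in 5% oxygen, had an adjusted p of 0.0627. With the shallow library left out of the whole fit DUSP1 passed as well (0.0251), and IER3 fell by 0.46 (0.0118), where 18.7% of all genes fell.
Between 1% and 5% oxygen at 24 h 0 of the 9 genes passed in limma, 2 had an unadjusted p under 0.05, and 0.744% of all genes passed.

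At 3 d the pattern was broader. In 1% oxygen 8 of the 9 genes rose over 21%, all but IER2, where 16.9% of all genes rose and 36.3% fell; without the shallow library the same 8 passed, beside 25.2% of all genes. Fitted on the 6 compared libraries alone, JUNB (adjusted p 0.0944), NR4A1 (0.2999) and IER3 (0.254) did not pass. In 5% oxygen 6 rose, FOS, JUN, EGR1, BTG2, NR4A1 and IER3, where 8.25% of all genes did and 13.6% fell. The median difference of the 9 genes was 2.24 in 1% oxygen, beside -0.32 for all genes, and 1.86 in 5%, beside -0.10. The -0.32 rests on the shallow library, without which the median of all genes was -0.01 and that of the 9 was 2.41. Both comparisons use the same 3 libraries of 21% oxygen.

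**Figure D2:**
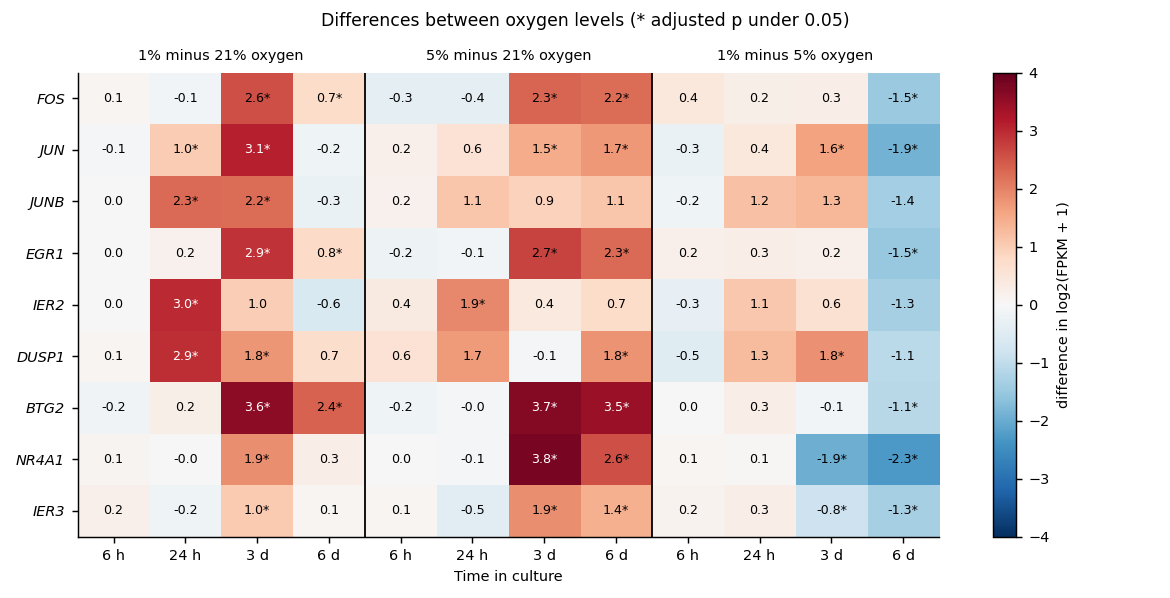
Difference in log2(FPKM + 1) between oxygen levels for the 9 genes tested, at 4 times; red is higher in the first-named level, blue is lower, and an asterisk marks an adjusted p under 0.05. IER2, DUSP1, JUNB and JUN differ first, at 24 h in 1% oxygen, BTG2 and NR4A1 show the largest values of 5% oxygen at 3 d, and all 9 values for 1% minus 5% oxygen are below 0 at 6 d.

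Among the transcription factors FOS had 21.2, 23.5 and 32.7 FPKM in 1% oxygen at 3 d and 19.6, 21.3 and 21.8 FPKM in 5%, against 3.38, 3.77 and 3.07 FPKM in 21%. The low-oxygen libraries were all far above the 21% ones, by 2.58 in 1% (SE 0.190, adjusted p 1.65e-11) and by 2.32 in 5% (SE 0.190, adjusted p 3.44e-10). EGR1, a zinc finger factor that binds GC-rich sites, had 75.2, 74.0 and 104 FPKM in 1% oxygen and 60.2, 58.1 and 111 FPKM in 5%, against 10.8, 11.2 and 8.99 FPKM in 21%. It rose by 2.90 in 1% (adjusted p 1.91e-11) and by 2.71 in 5% (adjusted p 1.82e-10). JUN had 12.2, 27.1 and 15.4 FPKM in 1% oxygen and 6.25, 4.55 and 4.20 FPKM in 5%, against 1.45, 0.841 and 1.15 FPKM in 21%. The 3 levels did not overlap: JUN rose by 3.10 in 1% (adjusted p 1.59e-10) and by 1.48 in 5% (adjusted p 7.74e-05), and was higher in 1% than in 5% by 1.62 (SE 0.257, adjusted p 0.000120). That last call was lost when the 6 libraries of 1% and 5% oxygen were fitted alone (adjusted p 0.636).

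NR4A1 was nearly absent in 21% oxygen at 3 d. It had 8.10, 9.68 and 0.00 FPKM in 1% oxygen, the 0 being the shallow library, and 14.9, 14.6 and 21.1 FPKM in 5%, against 0.288, 0.321 and 0.179 FPKM in 21%. In 5% oxygen it rose by 3.81 (SE 0.458, adjusted p 3.51e-07). In 1% it rose by 1.87 (adjusted p 0.00144), and by 2.97 (adjusted p 1.38e-13) without the shallow library. One of its 3 transcripts in the files held 93.4% of its FPKM. NR4A1 was lower in 1% than in 5% oxygen by 1.94 (adjusted p 0.00330) and, without the shallow library, by 0.84 (adjusted p 0.00147). As NR4A1 passed the filter only through its high groups, these p-values are no separate evidence of a difference.

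JUNB and DUSP1 rose at 3 d in 1% oxygen, but with a wide scatter. JUNB had 14.8, 48.7 and 59.2 FPKM in 1% oxygen and 17.1, 7.76 and 18.4 FPKM in 5%, against 9.80, 8.12 and 3.57 FPKM in 21%. Its difference was 2.24 in 1% (SE 0.550, adjusted p 0.00147) and 0.92 in 5%, which did not pass (adjusted p 0.273). DUSP1 had 21.8, 52.9 and 26.3 FPKM in 1% oxygen and 20.9, 10.7 and 1.83 FPKM in 5%, against 9.75, 8.73 and 7.15 FPKM in 21%. It rose by 1.76 in 1% (SE 0.572, adjusted p 0.0119), which without replicate 2 of 1% oxygen had an adjusted p of 0.0536. In 5% it differed by -0.08 (adjusted p 0.956). DUSP1 was higher in 1% than in 5% by 1.84 (adjusted p 0.0170), and without replicate 3 of 5% oxygen, at 1.83 FPKM, by 1.01 (adjusted p 0.156).

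IER2 had 46.0, 151 and 138 FPKM in 1% oxygen and 73.3, 33.2 and 108 FPKM in 5%, against 73.8, 52.1 and 30.8 FPKM in 21%. The 3 levels overlapped, and its differences of 0.99 in 1% and 0.38 in 5% had adjusted p of 0.143 and 0.729. Without replicate 1 of 1% oxygen, the low library, IER2 was higher in 1% by 1.53 (adjusted p 0.0283). That library also had the lowest reading of GC-rich against GC-poor genes of all 36, at -0.38, and the part of GC content in its value was not tested beyond the correction, under which IER2 had an adjusted p of 0.0823.

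BTG2 and IER3, which act on growth and survival, rose in both levels. BTG2 had 78.4, 73.8 and 38.3 FPKM in 1% oxygen and 62.6, 58.0 and 78.1 FPKM in 5%, against 4.72, 3.75 and 4.15 FPKM in 21%. The mean was 15.1 times that of 21% in 1% oxygen and 15.7 times in 5%, with log2 differences of 3.57 (adjusted p 2.42e-13) and 3.68 (adjusted p 2.29e-13). IER3 had 42.6, 49.0 and 15.2 FPKM in 1% oxygen and 50.0, 55.5 and 66.6 FPKM in 5%, against 12.9, 14.6 and 17.9 FPKM in 21%. The 15.2 is the shallow library, which lay among the 21% ones. IER3 rose by 1.86 in 5% (adjusted p 1.31e-06) and by 1.03 in 1% (adjusted p 0.000959), or by 1.54 (adjusted p 1.21e-09) without that library. It was lower in 1% than in 5% by 0.82 (adjusted p 0.0132), which was no longer so without the shallow library (0.31 lower, adjusted p 0.121) or without replicate 3 of 5% (adjusted p 0.0650).
In that comparison of 1% with 5% oxygen at 3 d, 2 of the 9 genes rose, JUN and DUSP1, where 13.4% of all genes did, and 2 fell, NR4A1 and IER3, where 23.2% did; DUSP1, NR4A1 and IER3 also had an adjusted p of 0.636 in the fit of these 6 libraries alone. JUNB, which did not pass (adjusted p 0.0604), passed without replicate 1 of 1% oxygen (0.00699) or after the GC and length correction (0.0273). FOS, EGR1 and BTG2 did not pass, with differences of 0.27, 0.19 and -0.11 and 95% intervals of -0.12 to 0.66, -0.25 to 0.63 and -0.55 to 0.32.

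Between 3 d and 6 d, the passage lying between, the 2 low oxygen levels parted. In 1% oxygen 6 of the 9 genes fell, FOS, JUN, EGR1, BTG2, NR4A1 and IER3, where 14.8% of all genes fell and 34.1% rose. Without the shallow library the same genes fell, where 20.9% of all genes fell and 23.7% rose. Fitted on these 6 libraries alone, FOS and EGR1 fell and JUN (adjusted p 0.0544), BTG2 (0.215), NR4A1 (0.532) and IER3 (0.247) did not pass. In 5% oxygen 3 genes rose, JUN, JUNB and DUSP1, where 5% of all genes did, and without the shallow library FOS, NR4A1 and IER3 fell there as well, by 0.47, 0.79 and 0.74, where 8.91% of all genes fell. NR4A1 in 1% oxygen had an adjusted p of 0.0407, which any of the 6 libraries but the shallow one, left out, raised above the threshold (0.0556 to 0.290). In 5% oxygen the call of JUNB was lost on leaving out any of the 6 libraries (0.0555 to 0.190), that of JUN without replicates 2 or 3 of either time (0.0637 to 0.109), and that of DUSP1 without replicate 3 of 3 d (0.155) or replicate 2 of 6 d (0.0511). FOS had 5.39, 4.66 and 4.08 FPKM in 1% oxygen at 6 d and 17.3, 15.9 and 11.9 FPKM in 5%, against 1.61, 3.20 and 2.52 FPKM in 21%. EGR1 had 24.6, 19.3 and 13.8 FPKM in 1% oxygen and 57.5, 52.4 and 56.5 FPKM in 5%, against 7.67, 14.0 and 11.2 FPKM in 21%. JUN had 3.41, 2.24 and 1.07 FPKM in 1% oxygen and 9.85, 11.7 and 10.3 FPKM in 5%, against 2.23, 3.26 and 1.98 FPKM in 21%. The 5% libraries of these 3 genes lay above all others at 6 d, and the 1% libraries of JUN overlapped those of 21%.

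Whether the change from 3 d to 6 d differed between 1% and 5% oxygen was tested in a comparison added after the values were seen. FOS changed by -2.21 in 1% oxygen and by -0.47 in 5%, and the difference of these changes was -1.75 (SE 0.269, adjusted p 3.95e-05). JUN changed by -2.56 in 1% and by 0.97 in 5%, a difference of -3.53 (SE 0.363, adjusted p 2.15e-07). In all, 6 of the 9 genes had a lower change in 1% than in 5%, FOS, JUN, JUNB, EGR1, DUSP1 and BTG2, where 10.3% of all genes did. Without the shallow library 8 of the 9 did, NR4A1 (adjusted p 5.09e-05) and IER3 (adjusted p 0.000298) being added, beside 18.4% of all genes. JUNB had an adjusted p of 0.0132, and of 0.0581 without replicate 3 of 1% oxygen at 6 d. Fitted on the 4 groups compared, JUNB (0.167), DUSP1 (0.147) and BTG2 (0.140) did not pass. IER2, with a difference of -1.95 and an adjusted p of 0.0731, did not pass with all libraries, and it passed without replicate 1 of 1% oxygen at 3 d (0.0160) or at 6 d (0.0365).

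**Figure D3:**
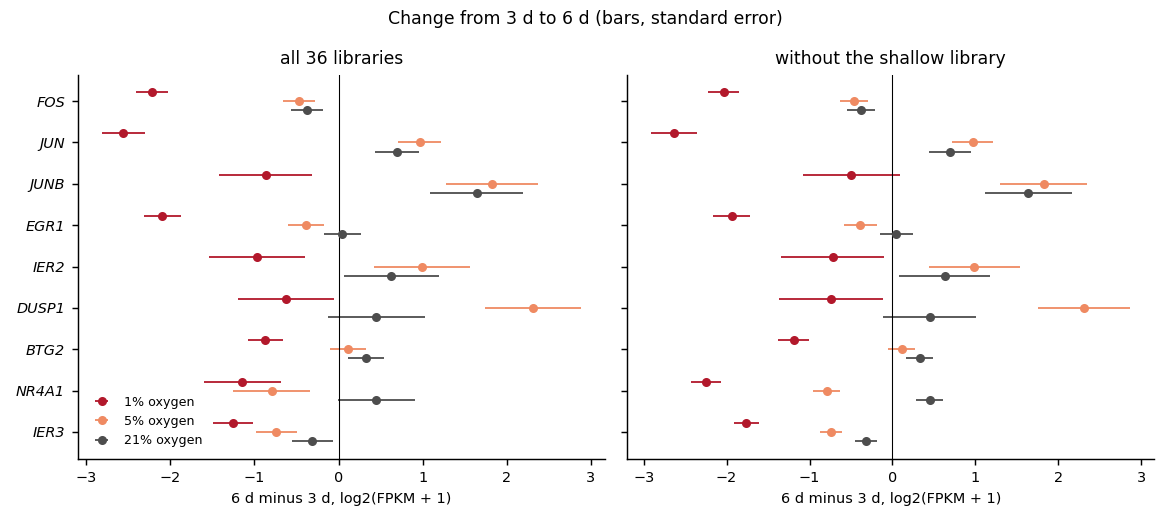
Change from 3 d to 6 d in log2(FPKM + 1), with its standard error, for the 9 genes in 1%, 5% and 21% oxygen, with all libraries on the left and without the shallow library on the right. All 9 values of 1% oxygen are below 0 and lie below those of 5% in both panels; JUN is at -2.56 in 1% and 0.97 in 5%.

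In 5% oxygen at 6 d 7 of the 9 genes rose over 21%, FOS, JUN, EGR1, DUSP1, BTG2, NR4A1 and IER3, where 7.24% of all genes did. BTG2 had 32.8, 34.2 and 31.2 FPKM in 1% oxygen and 72.0, 67.3 and 74.0 FPKM in 5%, against 4.54, 6.88 and 5.35 FPKM in 21%. Its 3 levels did not overlap, and it rose by 3.47 in 5% (adjusted p 9.58e-13) and by 2.37 in 1% (adjusted p 2.57e-09), and was lower in 1% than in 5% by 1.10 (SE 0.212, adjusted p 0.000802). DUSP1 had 44.1, 46.7 and 40.1 FPKM in 5% oxygen, against 10.5, 13.2 and 12.4 FPKM in 21%, and rose by 1.78 (adjusted p 0.0336), a call that leaving out any 1 of the 6 libraries ended (adjusted p 0.0683 to 0.109). JUNB, at 51.7, 52.3 and 47.2 FPKM in 5% oxygen, against 23.5, 20.6 and 24.8 FPKM in 21%, and IER2, at 131, 125 and 129 FPKM in 5%, against 72.4, 80.7 and 77.0 FPKM in 21%, did not pass (adjusted p 0.210 and 0.489). Their libraries did not overlap, and both passed in a fit of these 6 libraries alone (1.57e-05 and 1.31e-05).

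In 1% oxygen at 6 d 3 genes rose over 21%, FOS by 0.75 (adjusted p 0.00886), EGR1 by 0.76 (adjusted p 0.0197) and BTG2, where 5.84% of all genes did. Without replicate 1 of 21% oxygen, the lowest for FOS and EGR1, their adjusted p were 0.0966 and 0.178, and EGR1 also did not pass without replicate 1 (0.138) or 2 (0.0678) of 1% oxygen or in a fit of these 6 libraries alone (0.0615). NR4A1 averaged 1.09 ± 0.286 FPKM in 1% oxygen, 9.21 ± 0.789 in 5% and 0.780 ± 0.598 in 21%, and IER3 averaged 12.8 ± 1.45 FPKM in 1%, 33.7 ± 1.52 in 5% and 11.9 ± 1.02 in 21% (SD, n = 3 each). For both genes the 5% libraries stood alone above the other levels. Set directly against 5% oxygen at 6 d, 6 of the 9 genes fell in 1%, FOS by 1.48, JUN by 1.91, EGR1 by 1.51, BTG2 by 1.10, NR4A1 by 2.29 and IER3 by 1.34, where 3.9% of all genes fell. JUNB, at 1.37 lower, passed as well without the shallow library (adjusted p 0.0497) or without replicate 1 of 1% oxygen at 6 d (0.0384). Of the 10 hypoxia-induced genes, 4 rose and 1 fell in 1% against 5% oxygen at 6 d, where 4.72% of all genes rose.

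Across the 4 times the difference from 21% oxygen varied for 8 of the 9 genes in 1% oxygen, all but NR4A1, and for 6 in 5% oxygen, FOS, JUN, EGR1, BTG2, NR4A1 and IER3, by moderated F tests; 40.3% and 14.5% of all genes passed these tests. NR4A1 passed in 1% too once the shallow library was left out.

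Some of these genes also changed with time in 21% oxygen. There 5 of the 9 rose between 24 h and 3 d, IER2 by 2.89, DUSP1 by 2.46, FOS by 1.27, EGR1 by 1.09 and IER3 by 0.88, where 5.71% of all genes rose. IER2 averaged 52.3 ± 21.5 FPKM at 3 d and 6.02 ± 2.20 FPKM at 24 h (SD, n = 3 each) in 21% oxygen. BTG2 and NR4A1 did not pass there, at 4.21 ± 0.488 FPKM at 3 d and 5.07 ± 1.18 FPKM at 24 h for BTG2. Without replicate 3 of 21% oxygen at 24 h DUSP1 no longer passed (adjusted p 0.0560), nor did IER3 without replicates 2 or 3 of either time (0.0537 to 0.0910), and without the shallow library JUN (0.0423) and JUNB (0.0429) passed too. In 5% oxygen 6 genes rose between 24 h and 3 d, where 12.2% of all genes did, with FOS at 48.5 times and EGR1 at 19.2 times their 24 h means. In 1% oxygen 7 rose, where 16.2% did, with FOS at 36.4 times its 24 h mean; JUNB, 1 of the 7, had an adjusted p of 0.162 without the shallow library and of 0.0673 to 0.107 without replicate 2 of 3 d or any library of 24 h. In a fit of the 6 libraries alone JUNB (0.234), NR4A1 (0.288) and IER3 (0.0756) did not pass in 1%.

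Between 6 h and 24 h, JUNB, IER2 and DUSP1 rose in 1% oxygen, where 1.84% of all genes rose, by 1.91 (adjusted p 0.0473), 2.39 (adjusted p 0.0165) and 2.00 (adjusted p 0.0464). Each of the 6 libraries, left out in turn, ended the calls of JUNB and DUSP1, and IER2 held without replicate 2 at either time. In 5% and 21% oxygen 0 of 9 genes passed between 6 h and 24 h in limma, with 0 at an unadjusted p under 0.05, and 0.141% and 0.132% of all genes passed. Between 3 d and 6 d in 21% oxygen 0 of 9 passed, with 2 at an unadjusted p under 0.05, and 1.06% of all genes passed. Each later group was also longer in culture and, at 6 d, past a passage, so that time, culture density and passage cannot be told apart.

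FOSB, the AP-1 member below the filter, was at most 0.888 FPKM. It had 0.888, 0.600 and 0.647 FPKM in 5% oxygen at 6 d and 0.425, 0.603 and 0.825 FPKM in 5% at 3 d, against 0.213, 0.0296 and 0.00 FPKM in 21% at 6 d and 0.122, 0.0387 and 0.138 FPKM in 21% at 3 d. All 5% libraries of 3 d and 6 d were above all 21% ones. The share of olfactory receptor genes above 0 was also higher in these 5% libraries, 48.0 to 56.3% at 3 d and 66.0 to 74.6% at 6 d. In 21% it was 33.8 to 38.8% and 39.6 to 48.2%. The part of such low-level detection in the values of FOSB was not tested. When no filter was applied, FOSB rose in 5% over 21% oxygen by 0.55 at 3 d (adjusted p 0.00243) and by 0.66 at 6 d (adjusted p 0.000452) and was lower in 1% than in 5% at 6 d by 0.54 (adjusted p 0.00525).

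Replicates of 1 group differed far more for IER2, JUNB and DUSP1 than for the others. Their residual SD on the log2 scale was 0.73 for IER2, 0.70 for JUNB and 0.73 for DUSP1, at the 94.8, 94.0 and 94.8 percentiles of all genes tested, and at the 99.4, 99.3 and 99.4 percentiles without the shallow library. FOS, EGR1, BTG2, IER3 and JUN lay between 0.22 and 0.32, beside a median of 0.29 for all genes. Without the shallow library that median was 0.16, and JUN, EGR1, FOS, BTG2 and IER3 lay at the 91.6, 83.9, 71.5, 71.0 and 51.7 percentiles. NR4A1 had 0.58 with the shallow library and 0.19 without it. The median range between the 3 replicates of a group was 1.09 for IER2, 1.04 for DUSP1 and 0.97 for JUNB, and 0.23 to 0.48 for the other 6.

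The widest range of these 3 genes was that of DUSP1 in 5% oxygen at 3 d, 2.95, where replicate 3 was the lowest for DUSP1, at 1.83 FPKM, and the highest for IER2 and JUNB, at 108 and 18.4 FPKM. In 1% oxygen at 6 d all 3 genes were lowest in the same library: replicate 3 had 15.2 FPKM of IER2, 5.36 of JUNB and 8.05 of DUSP1, where replicates 1 and 2 had 95.8 and 84.3 FPKM of IER2, 41.8 and 27.6 of JUNB, and 29.5 and 32.1 of DUSP1. FOS, at 4.08 FPKM in replicate 3 and 5.39 and 4.66 FPKM in replicates 1 and 2, and BTG2, at 31.2 and at 32.8 and 34.2 FPKM, differed little between the same libraries. In 5% oxygen at 24 h replicate 1 was the low library for IER2, JUNB and DUSP1 alike. JUNB and DUSP1 each had the 3 replicates in the same order as IER2 in 7 of 12 groups, JUN and EGR1 in 5, FOS and NR4A1 in 4, BTG2 in 3 and IER3 in 1. The reading of GC-rich against GC-poor genes was -0.16 in replicate 3 of 1% oxygen at 6 d and -0.16 in replicate 1 of 5% at 24 h, and its part in these ranges was not tested.

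**Figure D4:**
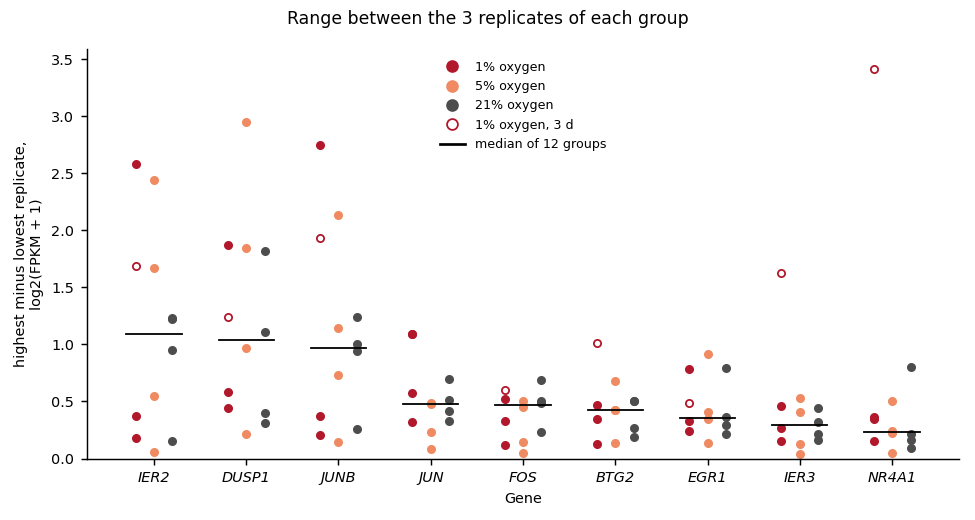
Range between the highest and lowest of the 3 replicates, in log2(FPKM + 1), for each gene in each of the 12 groups; colours are oxygen levels, open circles are 1% oxygen at 3 d, which holds the shallow library, and lines are medians over groups. The medians of IER2, DUSP1 and JUNB are 1.09, 1.04 and 0.97, and the highest point of NR4A1, at 3.42, is the group with the shallow library.

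As a description over 12 group means, FOS and EGR1 had a Pearson correlation of 0.99, and IER3 and FOS one of 0.97. IER2 and JUNB had 0.95, DUSP1 and JUNB 0.97, and DUSP1 and IER2 0.94, while IER2 had 0.72 with FOS and DUSP1 had 0.61 with IER3. These values share the shallow library. Outside the 10, the genes whose group means were most like the average of the 9, among 4813 candidates, were EPHB6, ACSS2, CSRNP1, LPIN1, TSPYL2, CAPN2, SERPINB9, PDLIM4, STARD4 and STARD8, with correlations of 0.98 to 0.99. CSRNP1, itself an early response gene, had 20.4, 24.4 and 10.8 FPKM in 1% oxygen at 3 d and 14.2, 13.8 and 21.6 FPKM in 5%, against 3.48, 3.07 and 2.89 FPKM in 21%. IER2 had its own nearest set, ACSL3, LEPRE1, LTBP4, PHF13 and TRIM4, with correlations of 0.98 to 1.00. Without the shallow library PHLDA2 took the place of STARD8 in the first set, and PHF13 and TRIM4 were no longer in the second, which TRMT1L joined.

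Of 45 other early response genes, 28 were tested. At 3 d in 1% oxygen 13 rose and 3 fell, with a median difference of 0.45, beside -0.32 for all genes and shares of 16.9% rising and 36.3% falling. Without the shallow library 21 rose and 2 fell, with a median of 0.97, beside -0.01 for all genes and shares of 25.2% and 28.5%. KLF6, a zinc finger factor, had 61.7, 60.1 and 44.6 FPKM in 1% oxygen and 41.9, 39.6 and 21.7 FPKM in 5%, against 8.28, 9.37 and 8.89 FPKM in 21%. It rose by 2.51 in 1% (adjusted p 1.16e-12) and 1.79 in 5% (adjusted p 2.14e-09). KLF10, a factor induced early by TGF-beta, rose by 2.38 in 1% and 2.14 in 5%, TRIB1, a pseudokinase, by 2.09 and 1.70, and ERRFI1, an inhibitor of EGFR, by 2.75 and 0.71. The falls in 1% were MYC by 0.70, ID1 by 3.51 and ID3 by 1.09, of which ID3 was no longer lower without the shallow library (0.17 lower, adjusted p 0.613).

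In 5% oxygen 11 of the 28 rose and 1 fell at 3 d, and 10 rose and 1 fell at 6 d, or 16 and 2 and 16 and 3 without the shallow library. Of all genes 8.25% rose and 13.6% fell at 3 d, and 7.24% and 7.59% at 6 d. Without the shallow library these shares were 15.7% and 29.2% at 3 d and 15.3% and 21.6% at 6 d. MYC fell at both times. At 24 h in 1% oxygen 1 rose, KLF10 by 0.84, and 1 fell, MYC by 0.50, or 6 and 2 without the shallow library. Of all genes 6.56% rose and 9.66% fell there, or 16.6% and 22% without that library. At 6 d in 1% oxygen 4 rose over 21%, KLF10 by 1.89, PPP1R15A by 1.11, KLF6 by 0.69 and SGK1 by 0.82, and 2 fell. Of all genes 5.84% rose and 5.04% fell. Without the shallow library 8 rose and 3 fell, beside shares of 13.8% and 16% of all genes. Against 5% oxygen at 6 d, 8 of the 28 fell in 1%, where 3.9% of all genes fell. Those with the smallest adjusted p were TRIB1, lower by 1.35, KLF6 by 1.16, SGK1, a kinase of ion transport and survival, by 1.30 and CSRNP1 by 1.37. KLF10 was not among the 8, at 38.5, 44.4 and 46.1 FPKM in 1% oxygen and 46.1, 43.0 and 41.8 FPKM in 5% at 6 d.

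**Figure D5:**
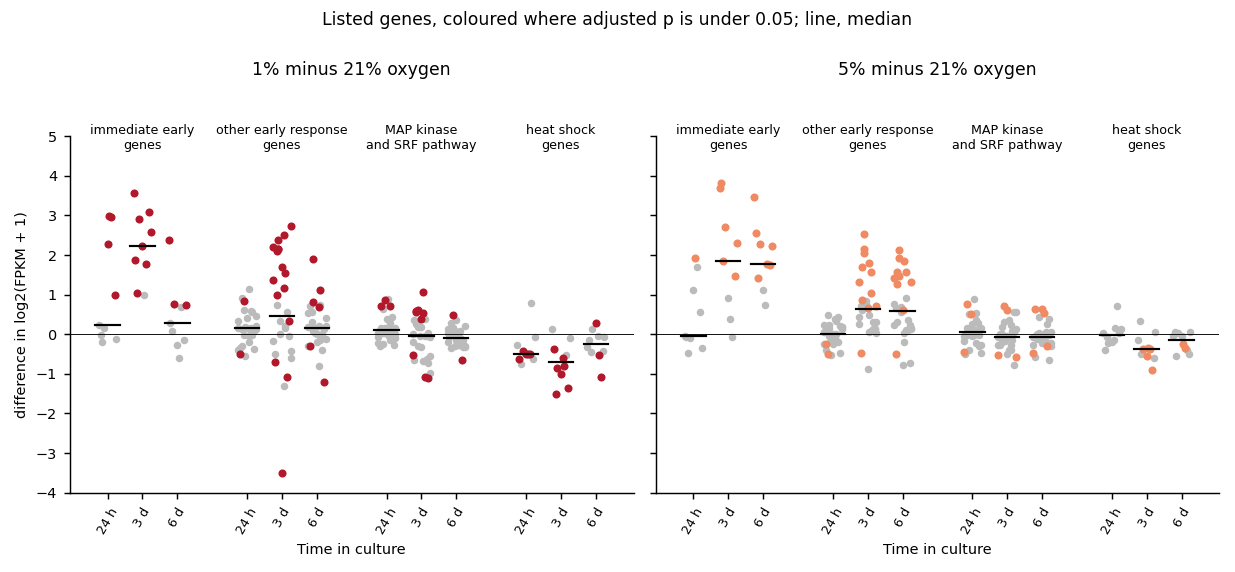
Difference in log2(FPKM + 1) from 21% oxygen of single genes of 4 lists at 24 h, 3 d and 6 d, for 1% oxygen on the left and 5% on the right; coloured points passed, grey points did not, and lines are medians. At 3 d in 1% oxygen 8 of 9 immediate early genes and 13 of 28 other early response genes rose, and 7 of 10 heat shock genes fell. Of all genes 16.9% rose and 36.3% fell there.

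Genes that carry or damp the signal were read in the same way. Of 7 tested ERK feedback inhibitors and dual-specificity phosphatases other than DUSP1, 1 rose, DUSP10 by 0.63, and 1 fell, DUSP7 by 1.10, in 1% oxygen at 3 d, and without the shallow library 3 rose and DUSP10 did not pass (0.43, adjusted p 0.103). Of all genes 16.9% rose and 36.3% fell there, or 25.2% and 28.5% without the shallow library. The median difference of the 7 was -0.16, and 0.40 without the shallow library. In 5% oxygen at 3 d 0 passed in limma, with a median of 0.00, and without the shallow library 3 rose and 1 fell. Of all genes 8.25% rose and 13.6% fell in 5%, or 15.7% and 29.2% without the shallow library. Of 30 tested genes of the MAP kinase and SRF pathway, 6 rose and 3 fell in 1% oxygen at 3 d, and 2 rose and 2 fell in 5%, beside the shares of all genes given above, 16.9% and 36.3% in 1% and 8.25% and 13.6% in 5%. Median differences were -0.04 and -0.07. Without the shallow library 9 rose and 1 fell in 1%, with a median of 0.22, and 6 rose and 6 fell in 5%. The shares of all genes without that library are those given above. Among those with the smallest adjusted p in 1% were RPS6KA3, a kinase that phosphorylates CREB, which rose by 1.05, MAPK14, the p38 kinase, which rose by 0.59, and ABL1, which fell by 0.53. Of 14 factors that degrade early response mRNAs, 3 rose in 1% oxygen and 2 in 5% at 3 d, where 16.9% and 8.25% of all genes rose. ZFP36L1, which binds AU-rich elements, rose by 2.33 and 2.11, and BTG1, the relative of BTG2, by 1.42 and 1.05. Of the 14, 4 fell in 1%, or 2 without the shallow library, and 1 fell in 5%, or 3 without it. Of all genes 36.3% fell in 1% and 13.6% in 5%, or 28.5% and 29.2% without the shallow library.

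Genes that report on handling and on RNA were read beside these results. The 10 heat shock genes had summed levels of 1672 to 2274 FPKM in 1% oxygen at 3 d and 2552 to 2943 FPKM in 5%, against 3531 to 3948 FPKM in 21%. Of the 10, 7 fell in 1%, where 36.3% of all genes fell, and 5 in 5%, where 13.6% did. Of 8 tested nuclear-retained RNAs, 7 rose in 1% oxygen at 3 d and 5 in 5%, where 16.9% and 8.25% of all genes rose. NEAT1 was up by 2.57 in 1% and 1.45 in 5%, and MALAT1 by 2.08 and 0.58. Among 12 markers of other cell types, 5 were tested. At 3 d CD3D, a T cell receptor chain, rose by 1.55 in 1% and 1.89 in 5%, COL1A2 by 0.65 and 0.82 and LYZ by 0.44 in 1% (0.11, adjusted p 0.512, without the shallow library), while EPCAM fell by 1.22 and 0.80. The summed level of the 12 was 331 to 444 FPKM in 1% oxygen at 3 d and 414 to 575 FPKM in 5%, against 254 to 261 FPKM in 21%, but CD3E was at most 0.420 FPKM and listed at 0 in 15 of 36 libraries, and CD14, MS4A1 and ALB were at most 0.480, 1.03 and 0.912 FPKM and listed at 0 in 8, 9 and 7 libraries. The part of handling, of RNA retention and of these markers in the rises at 3 d was not tested.

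The same lists were read for the change from 3 d to 6 d in 1% oxygen, where 34.1% of all genes rose and 14.8% fell. Without the shallow library 23.7% of all genes rose and 20.9% fell. Of the 11 erythroid and K562 markers 10 rose, with a median change of 1.37, beside 0.31 for all genes, and without the shallow library 11 rose, with a median of 1.22, beside 0.02. HBZ, an embryonic globin, rose by 3.00. In 5% oxygen 7 of the 11 rose, where 5% of all genes did, with a median of 0.72. Of the heat shock genes 7 of 10 rose in 1% oxygen, with or without the shallow library. Of the nuclear-retained RNAs 4 of 8 fell; NEAT1 fell by 1.42 and MALAT1 fell by 1.59. Of the 5 tested markers of other cell types 3 fell, CD3D by 1.62, COL1A2 by 1.75 and LYZ by 0.44, the last not passing without the shallow library (adjusted p 0.529), and EPCAM rose by 1.08. The summed level of the 12 markers was 226 to 245 FPKM in 1% oxygen at 6 d, against 331 to 444 FPKM at 3 d, and that of the 10 heat shock genes was 3829 to 4229 FPKM, against 1672 to 2274 FPKM. The part of these changes in the falls of the immediate early genes was not tested.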

How the data were processed

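PolyA-selected RNA of K562 cells was sequenced as paired 25-base reads by a Smart-seq2 protocol, per the labels' protocols. The authors made the FPKM values with TopHat and the Cufflinks suite (Cuffquant, Cuffnorm), per the series' design text and the submitters' processing notes; the build was not given in the sources used here, nor were tool versions and gene annotation. The deposited gene table held 21950 genes; a transcript table of 41726 rows served only for checks. Low values show steps, but what 1 read is worth was ambiguous, so depth and counting error are unknown.

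Groups follow the labels. Tests ran on log2(FPKM + 1), a pseudocount of 1, over genes with a mean of at least 1 FPKM. A single fit in limma 3.58.1 (R 4.3.3) with 12 group means, 24 residual degrees of freedom and a trended prior gave two-sided moderated tests, adjusted by Benjamini-Hochberg over 10625 genes and called at 0.05. Tables were made with Python 3.11.15 and pandas 2.3.3, figures with matplotlib 3.10.9. The procedure was tested on simulated data.

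The 10 genes and all lists were chosen with earlier results of these data known. From each other list the called genes with the smallest adjusted p were named, up to 4, and some genes that these rules name are not reported here; genes singled out beyond these were chosen after their values were seen. Likeness of pattern was ranked by correlation over 12 group means. GC content and length came from GENCODE transcripts and were known for 91.9% of genes tested. Alternatives were a pseudocount of 0.1, no filter or a mean of at least 5 FPKM, a fit on the compared groups only, the replicate number as a block, quantile normalization, TPM scaling, leaving out each library in turn, leaving out the shallow library and the GC and length correction; this correction and the comparison of the change from 3 d to 6 d between 1% and 5% oxygen were chosen after seeing the data. Promoters came from a RefSeq table; the build of the deposited tables being unknown, no coordinates of theirs are given.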

Additional observations from a re-analysis of the deposited data

Results flagged for a closer look

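The difference of 1% from 21% oxygen varied over the 4 times, by limma's moderated F test adjusted over all genes tested, for FOS (adjusted p 2.67e-08), JUN (1.19e-07), EGR1 (5.48e-08), BTG2 (2.17e-10), JUNB (0.00906), IER2 (0.00414), DUSP1 (0.0246) and IER3 (0.0282). Its course was not the same in all: the difference of IER2 was 2.99 at 24 h and -0.60 at 6 d, the value at 6 d not passing (adjusted p 0.652) and being 0.23 without replicate 3 of 1% oxygen, while that of BTG2 was 0.23 at 24 h and 2.37 at 6 d. The difference of 5% from 21% oxygen varied for FOS (adjusted p 6.93e-10), JUN (0.00660), EGR1 (6.15e-09), BTG2 (6.27e-12), NR4A1 (6.52e-05) and IER3 (2.06e-05). Both tests share the libraries of 21% oxygen.

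The change from 3 d to 6 d differed between 1% and 5% oxygen for FOS (adjusted p 3.95e-05), JUN (2.15e-07), EGR1 (0.000247), DUSP1 (0.00953), JUNB (0.0132) and BTG2 (0.0183), each lower in 1%, in a comparison that was added after the values were seen. No cause of these differences was tested.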

How the results depend on the processing

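No call reversed under any setting tried. The counts of immediate early genes called moved by over 1.5 times as follows, and the cause was not tested. Fitted on the compared groups only, 5 passed in 1% against 21% oxygen at 3 d, 0 in 5% against 21% at 24 h, 0 in 1% against 5% at 3 d, 5 between 6 h and 24 h, 4 between 24 h and 3 d and 2 between 3 d and 6 d in 1% oxygen, 5 and 3 between 3 d and 6 d in 5% and 21%, and 3 for the change from 3 d to 6 d in 1% compared with 5%. In 5% against 21% oxygen at 24 h, where 1 passed, 2 passed with TPM scaling, a pseudocount of 0.1 or a mean of at least 5 FPKM, 0 with no filter or quantile normalization, 3 without the shallow library, and 2 with that and the GC and length correction. TPM scaling left 1 in 1% against 21% oxygen at 6 d, and the filter of 5 FPKM left 2 in 1% against 5% at 3 d. Between 6 h and 24 h in 1% oxygen, 1 passed with TPM scaling, no filter or quantile normalization, and 5 without the shallow library, with or without the correction. Between 3 d and 6 d in 5% oxygen, 1 passed with the pseudocount of 0.1, 5 with quantile normalization, 6 without the shallow library and 5 with the correction too, which gave 1 in 21% oxygen. Leaving out the shallow library also raised the shares of all genes passing. The share went from 9.38% to 28.2% in 5% against 21% oxygen at 24 h. It went from 3.79% to 17.5% between 6 h and 24 h in 1%, and from 7.41% to 25% between 3 d and 6 d in 5%. Shares under the other settings are not reported here. Leaving out each library in turn gave 2 to 4 in 1% against 21% oxygen at 24 h and 1 to 3 at 6 d. It gave 0 to 2 in 5% against 21% at 24 h and 2 to 5 in 1% against 5% at 3 d. Between times it gave 0 to 1 from 6 h to 24 h in 1%, 0 to 2 from 3 d to 6 d in 5%, and 3 to 5 from 24 h to 3 d in 21%. Among the counts that moved by 1.5 times or less were those of 1% against 21% oxygen at 3 d, 7 to 9. Another was that of the change from 3 d to 6 d in 1% compared with 5%, 5 to 8. The replicate block left 2 between 6 h and 24 h in 1% and 2 between 3 d and 6 d in 5% oxygen, JUNB being lost (adjusted p 0.0653 and 0.0531), and kept the other counts. Replicate numbers did not pair the samples, with correlations of -0.30 to 0.15 and 0 of 21 comparisons with every pair over 0.1. The median difference of all genes in 1% against 21% oxygen at 3 d was -0.32 as reported, -0.55 with a pseudocount of 0.1 and -0.01 without the shallow library; at 24 h it was 0.39 with TPM scaling. Depth being unknown, levels under 1 FPKM, as for FOSB and NR4A1, cannot be given a counting error.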
